A study of Danio rerio with 10 samples.

Results

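L-carnitine was given to zebrafish embryos that carry the human TPM3(E151G) transgene, and gene expression was compared between 1 library of treated and 1 library of untreated TPM3(E151G) embryos. A gene entered the comparison when its FPKM, a count of sequenced fragments scaled to transcript length and to the library total, was at least 1 in either or both libraries. This held for 17585 of the 32265 genes listed. Of these, 16332 reached the minimum in both libraries, 951 in the treated library alone and 302 in the untreated library alone. A gene of the 951 has a log2 ratio above 0 by construction, so the number of such genes is given with each list that holds any. The size of a difference is given as the log2 ratio of FPKM + 1, treated over untreated, so that 1 stands for 2-fold higher, and adding 1 understates the change of genes at low levels. With 1 library per condition no test, p-value or standard error could be had, and every difference below compares these libraries and was not checked against replicates.

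The fish were of the AB strain. The treated and untreated fish were of the F3 generation and carried a Tol2 construct that placed human TPM3 under the MLC2 promoter, of a muscle myosin light chain, beside a myl7:EGFP heart marker. TPM3 encodes a tropomyosin of slow muscle, and the E151G and E151A changes were studied as causes of congenital myopathy. The untreated group was TPM3(E151G) with no compound, and the treated group was TPM3(E151G) with L-carnitine, which the study dissolved to 10 µM. Libraries of TPM3(WT) and TPM3(E151A) embryos, 1 each and untreated, were read beside them. The labels name whole embryos at 2 days, while their protocols describe muscle and immersion from 28 hpf to 7 dpf, and which of these holds for the sequenced RNA was not settled. The sources used here do not give the number of embryos in a library. In what follows, 4 values for a gene are FPKM in the order TPM3(WT), TPM3(E151A), untreated TPM3(E151G) and TPM3(E151G) with L-carnitine, and 2 values are FPKM in untreated and then in treated TPM3(E151G). The fish's own tpm3, beside which the human transgene acts, had 209.6, 254, 232 and 184.

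The tables hold FPKM without read counts, so the depth is unknown. The FPKM sum was smaller in the treated than in the untreated library. Scaling both libraries to the same sum shifted the median of the log2 ratios upwards by 0.26, while scaling by the median of gene ratios shifted it by 0.05. The medians of 41 gene lists moved upwards with equal sums as well, apart from that of the exocrine pancreas. Markers of many tissues were present. They included 45 of 48 fast muscle genes, 24 of 25 pan-neuronal genes, 59 of 75 lens genes, 21 of 24 endothelial genes and 47 of 47 liver genes, so tissues other than muscle were in the RNA. Of 21 genes of the exocrine pancreas and 23 of the intestine, 11 and 9 reached the FPKM minimum.

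L-carnitine carries long-chain fatty acids into mitochondria. The outer enzyme CPT1 joins the acyl group to carnitine, the carrier SLC25A20 takes the acylcarnitine across the inner membrane, and CPT2 releases it for beta-oxidation. The fish makes carnitine itself through Tmlhe and Bbox1. The embryonic liver secretes most plasma proteins, among them transferrin, fibrinogen, complement factors and apolipoproteins, and runs gluconeogenesis and the breakdown of amino acids. Before feeding starts, lipid reaches the tissues from the yolk in lipoproteins made by the yolk syncytial layer.

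With L-carnitine 448 genes were higher and 35 were lower by 2-fold or more, which is 2.55% and 0.199% of the 17585 genes compared. Of the 448 genes, 423 were protein coding. A log2 ratio above 0 was found for 45.8% of the genes and below 0 for 54.2%. The median was -0.04 and turned to 0.22 with equal FPKM sums, and the range from the 5th to the 95th percentile ran from -0.49 to 0.78. The count of higher genes was 1154 with equal FPKM sums and 1066 with a pseudocount of 0.1. Of the 448 genes, 106 had a clone-based or RNA family name and are not named here. The 15 genes with the highest log2 ratios among those with a gene symbol were tdo2b, cbln8, upp2, agxtb, ucp1, g6pca.1, crp3, rnasel3, plg, serpina1, pnp4b, fgg, hpx, tfa and pck1, from 2.61 for tdo2b to 2.13 for pck1. Of these, agxtb, ucp1, crp3 and pck1 share their listed locus with other genes.

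**Figure D1:**
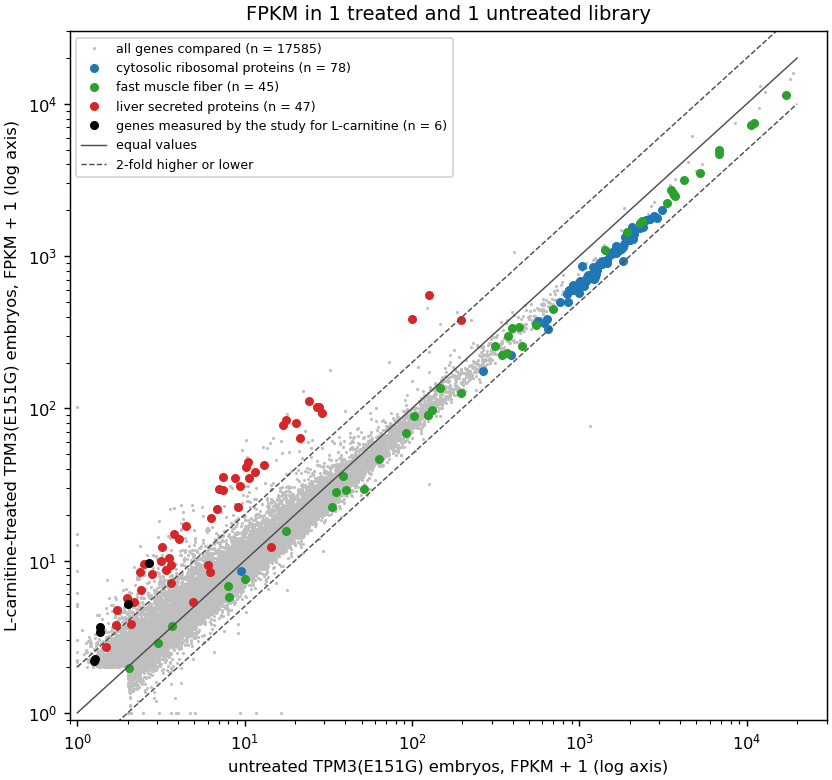
FPKM + 1 in the treated library (vertical, log axis) against the untreated library (horizontal, log axis), 1 point per gene, with the line of equal values and dashed lines at 2-fold. The 47 liver secreted proteins lie mostly above the upper dashed line, and the 78 ribosomal protein genes all lie below the line of equal values. The 6 genes that the study chose on these samples and measured, myh7 and myhz2 not among them, lie at the low end on the higher side.

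Genes of proteins that the liver secretes were higher with L-carnitine. Of 47 such genes, 46 had a log2 ratio above 0 and 39 were higher by 2-fold or more, or 83.0% against 2.55% of all genes. The median of the 47 was 1.70, with a range from -0.22 to 2.26. Of these genes, 4 entered the comparison through the treated library alone. Their FPKM values summed to 2616 in the treated library, against 761.9 untreated, 527.7 in TPM3(WT) and 531.9 in TPM3(E151A). This was 0.432% of all FPKM in the treated library and between 0.0809% and 0.103% in the others. The treated library was the highest of the 4 embryo libraries for 46 of the 47 genes, against 20.1% of all genes compared. In bulk RNA, more cells of a type and more RNA per cell cannot be told apart. With 1 library per condition, L-carnitine also cannot be told apart from a difference in clutch, collection time or stage between the libraries.

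tfa encodes transferrin, the iron carrier of plasma, and lies on chromosome 2 of GRCz11. It had FPKM values of 85.9, 100.4, 125 and 555, a log2 ratio of 2.14. The 3 libraries without L-carnitine lay together and the treated library stood above them. fgg, the gamma chain of fibrinogen, followed the same order, with 15.4, 15.8, 23.1 and 111. The heme carrier hemopexin (hpx) had 10.17, 11.9, 16.0 and 77.2, again with the treated library alone at the high end. The protease inhibitor serpina1 had 13.4, 11.4, 16.6 and 82.7, and plasminogen (plg) had 4.65, 5.54, 6.43 and 34.7. fabp10a, the liver fatty acid-binding protein that marks hepatocytes in zebrafish, was at a higher level throughout, with 58.5, 61.1, 98.6 and 388. The member with a log2 ratio below 0 was rbp4l, a retinol-binding protein gene, with 13.4 and 11.4.

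Narrower sets of plasma proteins, which overlap the liver list and were drawn up with the values in view, were higher too. Of 31 complement genes, 23 were higher by 2-fold or more, or 74.2% against 2.55% of all genes. The median of the 31 was 1.35, and 7 were compared through the treated library alone. cfb, complement factor B, had 9.46 untreated and 43.5 treated, and the central component c3a.1 had 19.2 and 78.8. masp1, a protease that starts the lectin branch of complement, was at a like level in both, with 15.1 and 14.3. Of 24 genes of coagulation and fibrinolysis, 14 were higher by 2-fold or more, or 58.3% against 2.55% of all genes. The median of the 24 was 1.44, and 3 were compared through the treated library alone. Prothrombin (f2) had 6.46 untreated and 28.0 treated, whereas tissue factor (f3a), which is made outside the liver, had 4.70 and 5.22. Of 16 carriers of retinol, vitamins and hormones, 11 passed 2-fold, or 68.75% against 2.55% of all genes. The median of the 16 was 1.65, and 2 came through the treated library alone. Among the 16 was gc, the vitamin D-binding protein, with 1.46 untreated and 8.73 treated.

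Liver enzymes were higher in part. Of 25 genes of amino acid breakdown, 7 were higher by 2-fold or more, or 28% against 2.55% of all genes. A log2 ratio below 0 was found for 8 of the 25, and the median of the list was 0.51. Through the treated library alone came 2 of the 25, and without the FPKM minimum the median was 0.29. tdo2b, a tryptophan dioxygenase on chromosome 11, had the highest log2 ratio of the genes with a symbol and a value above 0 in both libraries. Its FPKM values were 1.96, 1.78, 2.56 and 20.7, so that the treated library stood alone at the high end. Its paralog tdo2a had 3.14 untreated and 16.6 treated. agxtb, a glyoxylate aminotransferase, had 8.60 and 52.0, and hpda, which acts in tyrosine breakdown, had 7.35 and 28.9. Members under 2-fold included otc of the urea cycle, which had 10.0 untreated and 6.58 treated. The gene gatm, the first enzyme of creatine synthesis, had 128 and 96.5.

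Genes of gluconeogenesis were higher in part as well. Of 14 genes of gluconeogenesis and glycogen, 6 were higher by 2-fold or more, or 42.9% against 2.55% of all genes. The median of the 14 was 0.37, and it was 0.06 without the FPKM minimum and 0.67 with a minimum of 5. The treated library alone brought in 1 of the 14. pck1, the rate-limiting enzyme that makes phosphoenolpyruvate, had FPKM values of 2.15, 1.69, 3.27 and 17.7. The glucose 6-phosphatases that release glucose from the liver were higher too, g6pca.1 with 1.38 and 11.6 and g6pca.2 with 12.6 and 53.8. fbp1b had 14.5 and 45.0, and the liver glycogen enzymes gys2 and pygl had log2 ratios of 1.23 and 1.09. The muscle forms were inside 2-fold, with log2 ratios of -0.35 for fbp2, -0.17 for gys1 and -0.33 for pygmb. Of 43 cytochrome P450 genes, 11 were higher by 2-fold or more, or 25.6% against 2.55% of all genes. The median of the 43 was 0.33, and it was 0.05 without the FPKM minimum and 0.09 with a minimum of 5. However, 14 of the 43 were compared through the treated library alone and the levels were low, with a median FPKM of 1.499 untreated and 2.77 treated. cyp2k22 had 2.69 and 13.8, and cyp24a1, which inactivates vitamin D, had 1.499 and 7.03. Genes of purine and pyrimidine breakdown, listed with the values in view, had 5 of 13 members higher by 2-fold or more. This was 38.5%, against 2.55% of all genes. Among the 5 were upp2, a uridine phosphorylase (2.76 and 21.3), pnp4b, a purine phosphorylase (9.33 and 47.1), and uox, urate oxidase (8.32 and 29.7).

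Apolipoprotein genes went in both directions. Of 18 apolipoprotein genes, 6 were higher by 2-fold or more, or 33.3% against 2.55% of all genes. Below 0 were 6 of the 18. The median of the 18 was 0.58, and it was 0.33 without the FPKM minimum. apoa1b, of high-density lipoprotein, had FPKM values of 96.5, 106, 122 and 457. Its paralog apoa1a was highest in untreated TPM3(E151G), with 382, 428, 542 and 394. apobb.1, an apolipoprotein B of the yolk and liver, had 21.9 untreated and 70.5 treated, and apom had 20.8 and 61.4. apoea, an apolipoprotein E, had 54.8 and 28.6. The vitellogenin genes, which encode the yolk precursor that the liver of egg-laying females makes, were read in every library. Of 17 genes listed for vitellogenins and yolk, 9 were higher by 2-fold or more, or 52.9% against 2.55% of all genes. The median of the 17 was 1.05, and 2 came through the treated library alone. This list overlaps that of the apolipoproteins and has apoa1b as its highest member, so the counts are not separate. The gene vtg2 had 26.9, 24.1, 38.7 and 95.7, and vtg1 had 142, 126, 184 and 429.6. The vitellogenin genes share near-identical copies, so reads may have been split among them and their single values are uncertain.

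Transcription factors of hepatocytes were inside 2-fold on the scale of FPKM + 1. Of 17 that were compared, a list chosen with the values in view, 0 were higher by 2-fold and 13 were above 0, with a median of 0.12 (0.07 without the FPKM minimum) and 3 through the treated library alone. hnf4a, which drives hepatocyte genes, had 1.204, 0.926, 0.808 and 2.15, low values at which adding 1 understates the difference. The gene foxa3, a factor of the whole gut endoderm, had 3.12, 2.58, 3.19 and 2.90, and cebpa had 4.03, 3.56, 3.31 and 3.40. These factors are also expressed in other tissues of the embryo. Of 11 exocrine pancreas genes, 6 were higher by 2-fold or more, or 54.5% against 2.55% of all genes. However, 9 of the 11 were compared through the treated library alone. The median of the 11 was 1.02, and it was 0.34 without the FPKM minimum. The trypsin gene prss59.1 had 0.713 untreated and 4.63 treated, and ctrb1, a chymotrypsinogen, had 0.894 and 3.23. ptf1a, the regulator of the exocrine pancreas and of hindbrain neurons, had 14.7 and 12.1. With a minimum of 5, ptf1a alone was left of this list, with a log2 ratio of -0.25. Of 9 intestinal genes, 2 of them through the treated library alone, 1 was higher by 2-fold, or 11.1% against 2.55% of all genes. fabp2, the intestinal fatty acid-binding protein, had 9.57 and 5.87.

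The genes that handle carnitine itself were inside 2-fold. Of 15 genes of the carnitine shuttle, uptake and synthesis, 0 were past 2-fold, 1 was compared through the treated library alone, and the median was 0.01 (0.27 with equal FPKM sums), with a range from -0.45 to 0.61. cpt1ab, the outer-membrane enzyme, had FPKM values of 20.2, 15.9, 21.4 and 21.5. The muscle form cpt1b had 3.43, 2.66, 3.52 and 5.66. cpt2 had 9.03 untreated and 8.83 treated, slc25a20 had 17.5 and 15.1, and bbox1, the last enzyme of carnitine synthesis, had 3.46 and 4.30. Mitochondrial beta-oxidation gave a like picture, with 0 of 24 genes past 2-fold and a median of -0.12, which turned to 0.15 with equal FPKM sums. acadvl, the very long-chain dehydrogenase, had 32.7 and 33.2, acadm had 34.0 and 37.4, and echs1 had 65.9 and 48.01.

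A few genes of lipid use were past 2-fold. Among them ucp1, which uncouples mitochondria in mammalian brown fat and whose role in fish is less settled, lies on chromosome 1. Its listed locus holds 7 genes. ucp1 had FPKM values of 19.0, 27.7, 31.4 and 177, a log2 ratio of 2.46. Its paralogs were not higher by 2-fold, since ucp2 had 22.1 and 20.7 and ucp3 had 1.05 and 0.370. Lists of peroxisomal and ketone body genes and of lipid droplet genes and lipases were made with the values in view. Of 20 peroxisomal and ketone body genes, 2 were past 2-fold, or 10% against 2.55% of all genes. Below 0 were 6 of the 20, with a median of 0.13. Of 14 lipid droplet genes and lipases, 4 were past 2-fold, or 28.6% against 2.55% of all genes. The treated library alone brought in 4 of the 14, and the median was 0.33 (0.77 with a minimum of 5). In these lists ehhadh, a peroxisomal oxidation enzyme, had 1.16 and 3.56, oxct1b, which uses ketone bodies, had 1.41 and 4.74, lipca, the hepatic lipase, had 1.33 and 6.76, and pnpla2, the triglyceride lipase of fat droplets, had 0.634 and 2.81. Of 9 fatty acid-binding protein genes, 8 were below 0, with a median of -0.42 (-0.17 with equal FPKM sums). fabp10a alone was past 2-fold, or 11.1% of the 9 against 2.55% of all genes. Of 24 genes of fatty acid synthesis, elongation and desaturation, 1 was past 2-fold, or 4.17% against 2.55% of all genes. Of the 24, 12 were below 0 and 1 came through the treated library alone. Of the receptors and coactivators that switch on fatty acid oxidation, 13 of 15 were above 0 and 0 past 2-fold, with 1 through the treated library alone. The share above 0 was 86.7%, against 45.8% of all genes and 70.21% in the longest of 5 groups by locus length. The median was 0.16, and 0.12 with the trend on locus length taken out. ppargc1a, the coactivator of mitochondrial genes, had 4.78, 3.39, 2.497 and 4.90, so that untreated TPM3(E151G) held the lowest value of the 4 libraries.

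**Figure D2:**
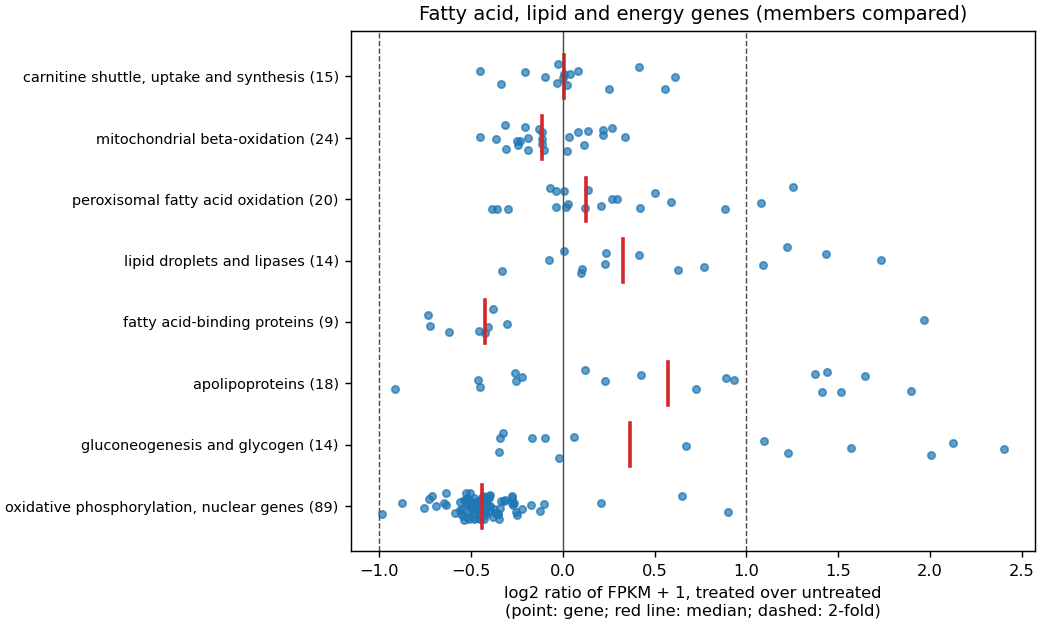
Log2 ratio of FPKM + 1, treated over untreated, for every compared member of 8 lists of fatty acid, lipid and energy genes (points), with the list median (red line) and dashed lines at 2-fold. The carnitine shuttle and beta-oxidation genes all lie inside 2-fold, and the 6 apolipoprotein and 6 gluconeogenesis genes past it lie on the higher side.

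A further group of genes stood lowest in untreated TPM3(E151G). Among them were genes that had been chosen on these samples for qRT-PCR after L-carnitine, so they are no independent evidence of a direction. The list of them leaves out myh7 and myhz2, which the study also measured by qRT-PCR after L-carnitine. By symbol 7 of the 8 listed genes were found, and 6 reached the FPKM minimum. Of these 6, 4 entered through the treated library alone, which fixes their direction, and the others were lin28b and onecut2. By 2-fold or more 4 were higher, and the median of the 6 was 1.35. lin28b, an RNA-binding protein that blocks let-7 maturation, had FPKM values of 7.67, 5.78, 1.70 and 8.71. onecut2, a transcription factor of liver and neurons, had 4.22, 3.81, 1.01 and 4.21. bsnb, a scaffold of the presynaptic active zone, had 1.92, 1.26, 0.363 and 2.68, and kmt2d, a histone H3K4 methyltransferase, had 2.43, 2.01, 0.365 and 2.42. The untreated values of bsnb, kmt2d, nr6a1a and b4galt5 were below the FPKM minimum. The nuclear receptor gene nr6a1a had 0.269 and 1.25, and b4galt5, a galactosyltransferase, had 0.261 and 1.19. Another entry named nr6a1a was listed at 0 in both libraries and did not enter the comparison. cntn3a.2, a neural adhesion molecule, stayed under the minimum in all libraries, with 0.0784 and 0.654. A comparison of untreated TPM3(E151G) with TPM3(WT) shares the untreated library with the log2 ratios given here, so that a low value there enters both.

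The primer pairs designed for qRT-PCR of lin28b and kmt2d are shown from the 5′ end, because they read these transcripts apart from the sequencing. The gene lin28b lies on chromosome 20 of GRCz11 from 47490856 to 47520525, and kmt2d on chromosome 23 from 27850887 to 27869341.
lin28b forward: cgtgttcgttcaccaaagtaag
lin28b reverse: cagacctttactcgacctcttaaa
kmt2d forward: cagggtgtggaggaatctttag
kmt2d reverse: gaccagctctggcttcatatc

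Ion channel genes were mostly above 0 with few members past 2-fold, where all genes had 45.8% above 0 and 2.55% past 2-fold. The share above 0 moved with locus length and with level. It was 70.21% in the longest of 5 groups by length, among genes alone in their locus. In the lowest of 5 groups by level it was 64.43%. The lists below were not compared with genes matched for length or level. Against 45.8% alone, their excess may therefore look larger than it is. Of 10 voltage-gated sodium channel genes, whose products start the action potential, 9 were above 0, 1 of them through the treated library alone, and 1 was past 2-fold. This was scn2b, a beta subunit, with FPKM values of 9.77, 5.71, 4.45 and 11.05. scn8ab, a pore subunit of neurons, had 5.47, 3.95, 2.34 and 5.26, and scn4ab, the pore subunit of skeletal muscle, had 2.98, 2.07, 2.73 and 2.64. Of 35 calcium channel genes, 28 were above 0, but 6 of these through the treated library alone, among them the 1 past 2-fold. This gene, cacna1da, an L-type pore subunit of neurons and hair cells, had 3.65, 1.66, 0.624 and 2.64, while the muscle pore subunit cacna1sb had 11.7, 12.6, 11.5 and 10.4. Of 61 potassium channel genes, 50 were above 0, 12 of these through the treated library alone, and 3 were past 2-fold. These were kcnq3 (2.07 untreated and 5.73 treated), kcna2b (1.35 and 4.06) and kcnc3b (0.261 and 1.63), all channels of neurons, and kcnc3b came through the treated library alone. The medians were 0.56, 0.43 and 0.32 for sodium, calcium and potassium channels. Without the FPKM minimum they were 0.44, 0.24 and 0.18, and with a minimum of 5 that of calcium channels was 0.08. The share past 2-fold was 10.0%, 2.86% and 4.92%.

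Receptors, synapse proteins and adhesion molecules of neurons were mostly above 0 as well, against the same shares of all genes. The higher shares among long genes and among genes at low level, given with the ion channels, bear on these lists too. Of 22 GABA and glycine receptor genes, 18 were above 0, 3 of these through the treated library alone, and 2 were past 2-fold. Their median was 0.39 and without the FPKM minimum 0.25. The gene gabrb4, a GABA(A) receptor subunit, had 12.1, 7.00, 4.64 and 12.01, and gabbr1b, of the GABA(B) receptor, had 6.30, 3.38, 2.28 and 6.45. Of 65 genes of synaptic vesicle release, 52 were above 0, 8 of these through the treated library alone, and 6 were past 2-fold, among them syt16, of the synaptotagmin family (1.24, 0.886, 0.889 and 3.95), and erc2, of the active zone (4.94, 3.32, 1.71 and 4.86). snap25b, a fusion protein of the same list, had 82.6 untreated and 73.3 treated. Of 51 genes of synaptic adhesion and scaffolds, 44 were above 0, 4 of these through the treated library alone, and 3 were past 2-fold, with ptprdb, a receptor phosphatase, at 2.89 and 7.30, and nlgn4b, a neuroligin, at 0.812 and 2.68. Of 85 cadherin and protocadherin genes, 71 were above 0, 14 of these through the treated library alone. Past 2-fold were 2, or 2.35% against 2.55% of all genes, pcdh9 with 4.49 and 11.6 and the giant cadherin fat3a with 1.45 and 4.22. The median of pan-neuronal markers was -0.11 and turned to 0.17 with equal FPKM sums, with 9 of 24 above 0. map1b, a microtubule protein of axons, had 4.91 and 10.4, and gap43, of growing axons, had 59.9 and 43.8.

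Chromatin regulators and growth factor receptors were mostly above 0 too. Of 72 KMT2 methyltransferases and large chromatin regulators, 62 were above 0, with a median of 0.23 (0.16 with the trend on locus length taken out). The share above 0 was 86.1%, against 45.8% of all genes and 70.21% in the longest group by locus length. The higher shares among long genes and among genes at low level bear on the other lists of this paragraph too. Past 2-fold was 1, or 1.39% against 2.55% of all genes. This was kmt2d, which came through the treated library alone. The related kmt2a had FPKM values of 13.3, 13.8, 7.59 and 12.9. tet2, which oxidizes methylcytosine, had 28.6, 26.7, 17.5 and 28.9. Untreated TPM3(E151G) was the lowest of the 4 libraries for 54 of the 72 genes, or 75% against 27.4% of all genes compared. A list of very long coding genes, which shares members with other lists, was near this with 39 of 56, or 69.6%. Of the 56, 47 were above 0, 7 of these through the treated library alone, with a median of 0.38. ntrk2b, a receptor of brain-derived neurotrophic factor, had 3.57, 1.67, 0.903 and 3.11, and was the member past 2-fold of 49 growth factor receptor genes, or 2.04% against 2.55% of all genes. Of the 49, 37 were above 0, 8 of these, ntrk2b included, through the treated library alone. slc6a8, the creatine transporter, had 13.9, 13.02, 3.42 and 10.4. It was 1 of 9 solute carrier genes past 2-fold out of 254, or 3.54% against 2.55% of all genes, which also held the fatty acid transporter slc27a6 (1.81 and 7.58) and the citrate carrier slc25a1b (3.30 and 8.29). Of the 254, 14 came through the treated library alone. Chosen with their values in view, the corepressor lcor had 9.40, 6.34, 1.94 and 9.71, and bin1a, whose mammalian counterpart shapes the T-tubules of muscle, had 12.2, 7.33, 3.97 and 14.8.

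**Figure D3:**
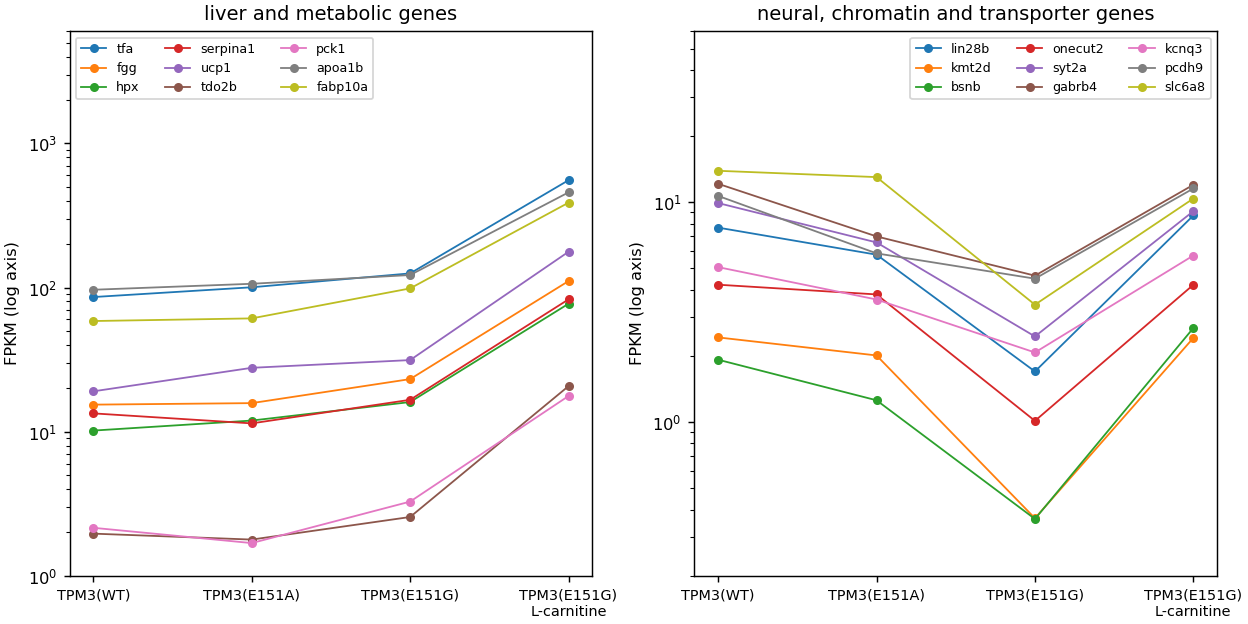
FPKM (log axis) of 9 liver and metabolic genes (left) and 9 neural, chromatin and transporter genes (right) in the 4 embryo libraries, named on the horizontal axis, with lines joining the values of a gene. On the left the treated library lies above the other libraries for each gene, and on the right untreated TPM3(E151G) lies below the others for each gene. The genes were picked with earlier results of these data known and do not stand for their lists. Over whole lists untreated TPM3(E151G) was lowest for 29 of 61 potassium channel, 22 of 65 synaptic vesicle and 38 of 85 cadherin genes.

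Muscle genes, the tissue of the transgene's promoter, were slightly lower with L-carnitine. Of 45 fast muscle genes, 44 had a log2 ratio below 0, against 54.2% of all genes, and none was past 2-fold. The median was -0.46 and stayed below 0 at -0.17 with equal FPKM sums. In the highest of 5 groups by level the median was -0.23, with 21.1% of the genes above 0. The muscle lists were not compared with genes matched for level, so their excess below 0 may look larger than it is. myhz2, a fast myosin heavy chain, had FPKM values of 331, 287, 374 and 297. actc1a, an actin of embryonic muscle, had 285, 459, 455 and 255, and the calcium buffer pvalb3 had 35.5, 41.4, 51.0 and 28.6. Untreated TPM3(E151G) was the highest of the 4 libraries for 34 of the 45 genes, against 31.4% of all genes. Of 21 slow muscle genes, 17 were below 0, with a median of -0.33 (-0.12 with equal FPKM sums and -0.51 with a minimum of 5), and 1 came through the treated library alone. The slow myosin smyhc1 had 136, 162, 185 and 128. The member with the largest log2 ratio in size was myh7ba, a myosin at low level, with 1.68, 0.925, 0.499 and 1.70.

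Genes of very large muscle proteins went in both directions. Of 32 giant sarcomere and membrane scaffold genes, 18 were above 0, with a median of 0.18. The share above 0 was 56.25%, against 45.8% of all genes and 70.21% in the longest group by locus length. Past 2-fold was 1, or 3.125% against 2.55% of all genes. This was obscnb, an obscurin that links the sarcomere to its membranes, with 12.1, 13.8, 5.23 and 11.7. The titin genes had 29.1, 18.5, 14.6 and 24.0 for ttn.1 and 35.3, 25.5, 20.8 and 30.2 for ttn.2. neb, nebulin of the thin filament, had 250.0, 306, 337 and 263, and dmd, dystrophin, had 18.7, 20.3, 22.7 and 16.8, both with the highest value in untreated TPM3(E151G). Of 23 genes of muscle excitation and calcium release, none was past 2-fold and the median was -0.03, which turned to 0.21 with equal FPKM sums. ryr1b, the calcium release channel of fast muscle, had 21.4, 20.4, 14.9 and 19.7.

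Ribosomal protein genes were lower as a body, with no member past 2-fold. All 78 cytosolic ribosomal protein genes had a log2 ratio below 0, against 54.2% of all genes, with a median of -0.62 and a range from -0.98 to -0.17. The lower ratios of the group at the highest level, given with the muscle genes, bear on the lists here too. No list was compared with genes matched for level. Their median FPKM values were 822, 1138, 1356 and 896, in the same order of libraries. Untreated TPM3(E151G) was the highest of the 4 libraries for 77 of them. The median was -0.33 with equal FPKM sums and -0.46 with the trend on locus length taken out. rps29 had 366, 562, 649 and 329, and rpl18 had 1068, 1512, 1815 and 929. Mitochondrial ribosomal protein genes were all below 0 as well (73 of 73, median -0.41, -0.14 with equal FPKM sums). Of 89 nuclear genes of oxidative phosphorylation, 86 were below 0, with a median of -0.44 (-0.16 with equal FPKM sums). cox7c, a subunit of cytochrome oxidase, had 80.6, 86.8, 115 and 62.3. The muscle forms cox7a1 and cox6a2 were among the 3 members above 0, with 1.13 and 2.97 and with 2.04 and 3.76. The 13 mRNAs of the mitochondrial genome had a median of -0.17, which turned to 0.12 with equal FPKM sums. DNA replication genes were below 0 for 44 of 46, with a median of -0.29 that came to -0.05 with equal FPKM sums, and here TPM3(E151A) stood apart, with a median FPKM of 16.2 against 8.63 in TPM3(WT), 11.97 untreated and 9.14 treated. Epidermal keratin genes were below 0 for 23 of 24, with a median of -0.43 (-0.16 with equal FPKM sums).

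**Figure D4:**
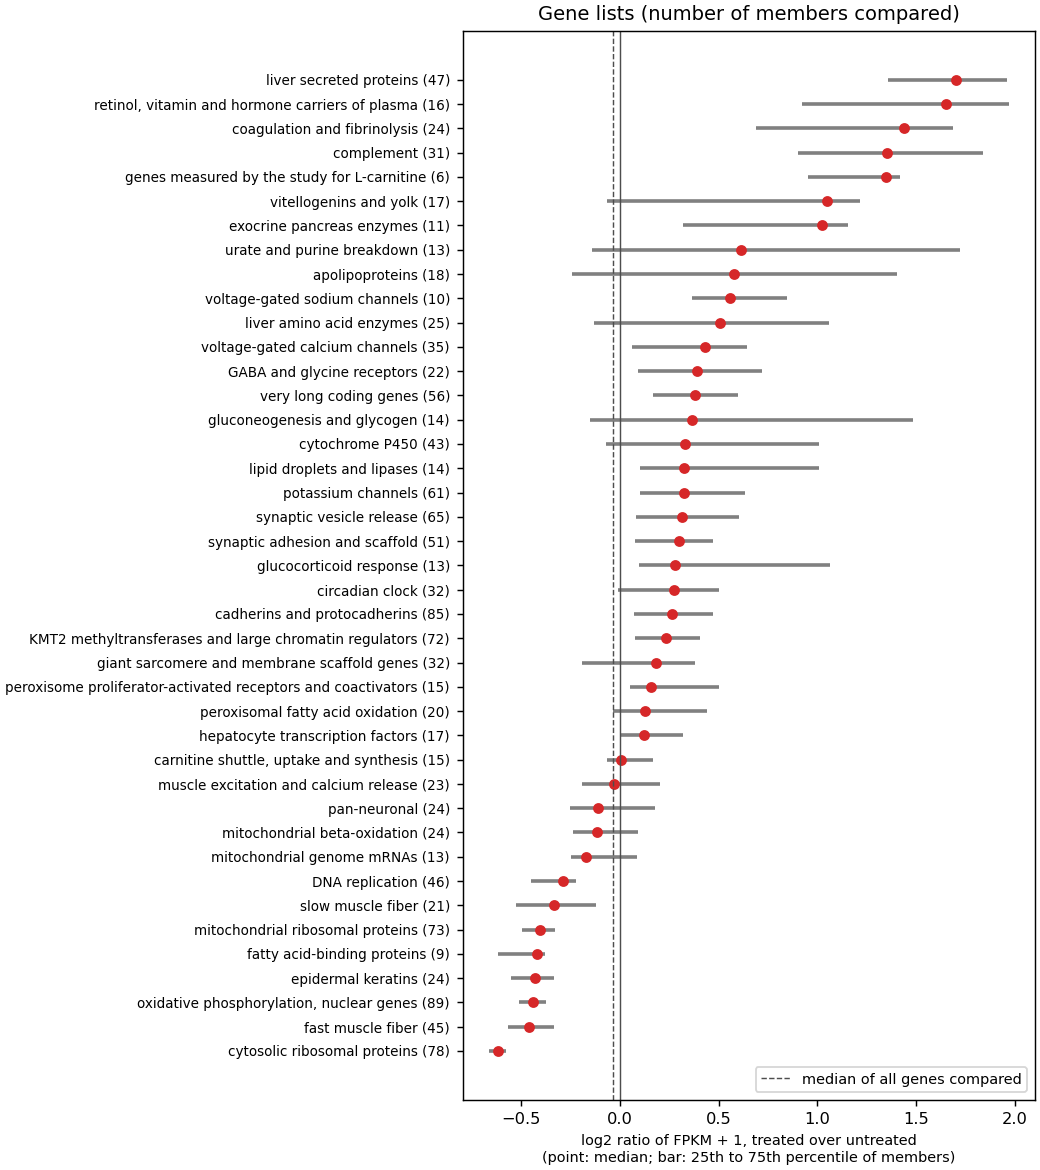
Median log2 ratio of FPKM + 1, treated over untreated, for 41 gene lists (points), with bars from the 25th to the 75th percentile of the members and the number compared in parentheses. The dashed line is the median of all genes at -0.04. Liver secreted proteins are at the top at 1.70 and cytosolic ribosomal proteins at the bottom at -0.62, and the medians of all genes, mitochondrial beta-oxidation, mitochondrial genome mRNAs, pan-neuronal genes and muscle excitation turn above 0 with equal FPKM sums.

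The 35 genes lower by 2-fold or more held few named genes. Of these, 18 were protein coding, 8 were small RNAs, 15 share their listed locus with another gene, and 14 were listed at 0 in the treated library. A gene symbol was held by 5 of them. mettl10, a lysine methyltransferase, had the largest value, with FPKM values of 126 untreated and 31.1 treated, but it was listed at 0 in TPM3(WT) and TPM3(E151A) and shares its locus with 2 other genes. tmem17, of the transition zone of cilia, had 6.66, 7.29, 9.17 and 3.63, and rsg1, a small GTPase of ciliogenesis, had 2.12, 2.61, 2.65 and 0.550. For both genes the treated library was the lowest of the 4. mvdb and emilin3a were listed at 0 in the treated library and in TPM3(WT) and TPM3(E151A), with 2.65 and 1.08 in the untreated library. In the other direction, 15 genes were listed at 0 in the untreated library and reached the minimum with L-carnitine. The highest was si:ch1073-140o9.2, with 101 treated and 0 in the other libraries. Its listed locus is very short, from 3835090 to 3835189 on chromosome 17, where few fragments give a high FPKM. It was followed by dre-mir-124-6, SNORA31, a 5S_rRNA gene and SNORA3, which are short RNAs. Of 14 genes at or above the minimum untreated and listed at 0 with L-carnitine, the highest were SNORA68, SNORA26, dre-mir-363, SNORA62 and U11, with untreated values from 3.72 to 15.6. No fold is given against a value of 0.

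The ratio of treated to untreated moved with the length of the locus and with the level of the gene. Among the 12924 genes that were alone in their locus, split into 5 equal groups by length, the median log2 ratio was -0.19 in the shortest group, up to 6.21 kb, and 0.17 in the longest, from 45.3 kb upwards. The share of genes above 0 went from 29.5% to 70.21%. The share higher by 2-fold did not follow this order, with 3.06% in the shortest group and 2.63% in the longest. Against TPM3(WT), the untreated library had medians of 0.23 in the shortest and -0.19 in the longest group, while the treated library had 0.05 and -0.01. In 5 groups by level, the group with the lowest summed FPKM had a median of 0.14 and the highest group -0.23. With the length trend taken out, the medians were 1.72 for liver secreted proteins, 0.47 for sodium channels, 0.34 for calcium channels, 0.35 for potassium channels, 0.28 for synaptic vesicle release and 0.16 for chromatin regulators. RNA quality of these libraries was not analysed here, and its part in these trends was not tested. Per chromosome, between 1.22% (chromosome 17) and 4.59% (chromosome 22) of the genes were higher by 2-fold or more.

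**Figure D5:**
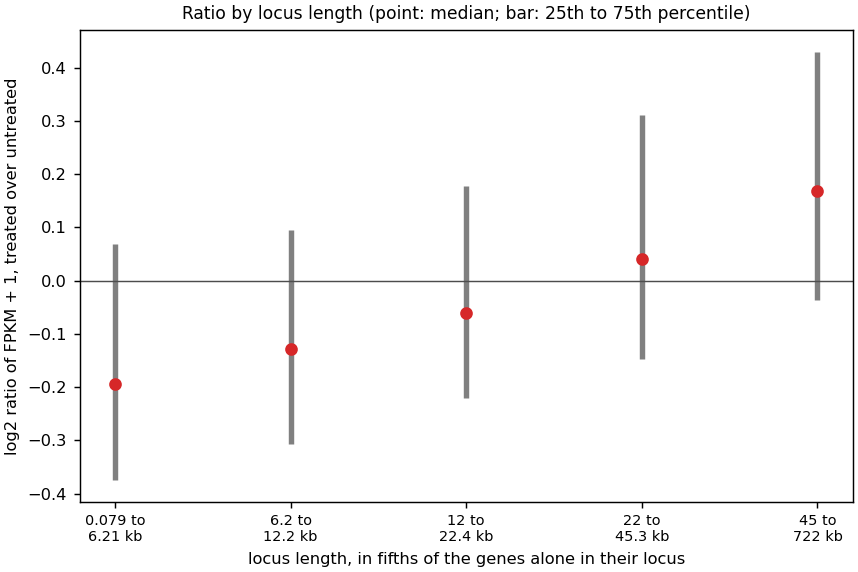
Log2 ratio of FPKM + 1, treated over untreated, in 5 equal groups by locus length (horizontal, shortest at left) for the 12924 genes alone in their locus. Points are medians and bars run from the 25th to the 75th percentile. The median goes from -0.19 in the shortest group to 0.17 in the longest.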

How the data were processed

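RNA of 1 library each of untreated and L-carnitine-treated TPM3(E151G) embryos was compared, with 1 library each of TPM3(WT) and TPM3(E151A) embryos as context. The series has 6 adult libraries as well, not used here. The authors deposited FPKM values per gene with loci on GRCz11. The submitters' processing notes name bcl2fastq 2.20, Trimmomatic 0.36, HISAT2, featureCounts 1.6.3 and DESeq2 1.22.2. The deposited ratio, log2, p-value and q-value columns hold the authors' own comparisons and were not used. No counts are given, so depth is unknown, and FPKM divides by gene length and library total, so a few strong genes can shift all others. FPKM of 1e-05 or less was read as listed at 0.

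Genes with FPKM of at least 1 in either library were kept, and log2((treated + 1)/(untreated + 1)) was computed in Python 3.11.15 with pandas 2.3.3 and statsmodels 0.14.6. A gene was counted as higher or lower from 2-fold on. The calculation was tested on simulated data. Alternatives were equal FPKM sums, median-of-ratios scaling, a pseudocount of 0.1, no minimum or 5, a lowess trend on log10 locus length (fraction 0.3) removed, clone-based and RNA family names left out, and folds of 1.5 and 3. Named were the 15 highest and up to 15 lowest past 2-fold and up to 4 of each list. The genes that the study chose on these samples and measured, and up to 5 at 0 in either library, were named too. Genes named beyond these, such as rbp4l, masp1, f3a, otc, gatm, myhz2, neb or lcor, were picked with their values in view. The comparison, the members and the lists were chosen with earlier results of these data known.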

Additional observations from a re-analysis of the deposited data

How the results depend on the processing

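With 1 library per condition, no alternative has an error of its own. The counts of higher and lower genes were 448 and 35. They became 1154 and 38 with equal FPKM sums, 514 and 31 with median-of-ratios scaling, 1066 and 104 with a pseudocount of 0.1, 286 and 15 with an FPKM minimum of 5, 464 and 28 with the length trend removed, 342 and 5 with clone-based and RNA family names left out, 1637 and 382 at a fold of 1.5, and 117 and 12 at a fold of 3. Leaving out the minimum kept 448 and 35. The median of the liver secreted proteins was 1.70 and moved to 2.01 with equal sums and 1.90 with the pseudocount of 0.1, and that of the cytosolic ribosomal proteins was -0.62 and moved to -0.33 with equal sums and -0.46 with the length trend removed. Direction turned with equal sums for mitochondrial beta-oxidation (0.15), mitochondrial genome mRNAs (0.12), pan-neuronal genes (0.17), muscle excitation and calcium release (0.21 from -0.03) and all genes (0.22 from -0.04). It turned for mitochondrial genome mRNAs with the length trend removed (0.00186). For the exocrine pancreas the minimum of 5 left ptf1a alone, at -0.25, so no median of the list can be read there. The medians of all genes and of muscle excitation (both 0.02 with median-of-ratios scaling) and of the carnitine genes (-0.01 with the minimum of 5) also crossed 0. Of the log2 ratios of single named genes under the alternatives, 971 stayed within 0.5 and 31 moved further, 30 of them with the pseudocount of 0.1, and none of at least 1 in size changed sign. The causes of these changes were not tested. No paired analysis was possible because each condition has 1 library. Depth is unknown, so no limit from counting can be given.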

Other observations

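Some genes of hormone response and defence also differed by 2-fold or more between the treated and untreated library. Of 13 genes that respond to glucocorticoids, 4 were higher by 2-fold or more, or 30.8% against 2.55% of all genes. These were pck1, fkbp5, tat and klf9. The median of the 13 was 0.28, and 1 came through the treated library alone. fkbp5, a chaperone partner of the glucocorticoid receptor, had FPKM values of 3.80, 1.88, 2.05 and 7.90, in the order of libraries used above. klf9 had 0.846, 0.381, 0.610 and 2.37. pck1 and tat are liver enzymes as well. The receptor itself, nr3c1, had 20.9 and 22.5, and tsc22d3 had 31.4 and 31.0. Of 32 genes of the circadian clock, 22 were above 0 and none was past 2-fold. The share above 0 was 68.75%, against 45.8% of all genes and 70.21% in the longest group by locus length. The median of the 32 was 0.28, and 1 came through the treated library alone. clockb had 4.61 and 8.14, and the times of day at which the embryos were collected are not given in the sources used here.

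dio1, a deiodinase that activates thyroid hormone, had 2.64, 3.07 and 3.80 in the libraries without the compound and 10.26 with it. b2m, the light chain of MHC class I, had 3.39, 3.81, 4.62 and 18.7. It was the 1 member past 2-fold of 13 genes of MHC class I and II, or 7.69% against 2.55% of all genes. Through the treated library alone came 3 of the 13. The granulin gene grn2 had 0.919, 0.990, 1.18 and 8.02. Of 16 leukocyte genes, grn2 among them, 2 were past 2-fold, or 12.5% against 2.55% of all genes. Above 0 were 9 of the 16, with a median of 0.05 and 3 through the treated library alone. The leukocyte markers lyz and mpx were inside 2-fold, with 58.6 and 45.8 and with 1.52 and 1.45. cbln8, of the secreted cerebellin family, had 6.31, 7.02, 9.201 and 60.6, while cbln1, the cerebellin of brain synapses, had 37.2 and 31.1. Of 9 cerebellin genes, listed with the values in view, 5 were past 2-fold, or 55.6% against 2.55% of all genes. Below 0 were 2 of the 9, with a median of 1.00 and 3 through the treated library alone.

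A few genes were discontinuous across the 4 libraries and were chosen for that. urad, of urate breakdown, had 0.436, 0.447, 15.5 and 8.16. CABZ01079826.1, a processed transcript with no gene symbol, had 709, 0, 1149 and 75.8.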
